A study of Mus musculus with 22 samples.

Results

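The genes described here encode the proteins of the cytosolic ribosome, the particle that translates messenger RNA outside the mitochondria. They were chosen by name from the probe annotation: symbols of the form Rpl or Rps with a number, and Rplp0, Rplp1, Rplp2 and Rpsa, without pseudogenes and without the Rps6 kinases, which are enzymes and no part of the ribosome. Probe sets naming exactly 1 such gene were kept. This gave 46 genes with 100 probe sets, 24 genes of the large subunit and 22 of the small one, of 18193 genes named in this way on both chips. Each gene is represented by its probe set with the highest mean signal, and 23 genes have more than 1. A further 24 ribosomal protein genes are named only by probe sets that also name pseudogenes or predicted genes, and are described apart from the 46.

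Mouse bone marrow cells were sorted by CD45, the phosphatase Ptprc found on white blood cells, and by Sca1, an antigen of blood stem cells that some mature leukocytes also carry. In the group names the first sign stands for CD45 and the second for Sca1, an order given in the array run records. OGCsort -/- (samples 4, 5 and 8), OGCsort +/- (samples 1, 7 and 9) and OGCsort +/+ (samples 1, 5 and 6) hold 3 RNA samples each, sorted to a stated purity of 90%. CPGSE +/+ (samples 4 and 6) holds 2 samples at 95 to 98% purity, labelled as haematopoietic stem cells. Each of the 11 RNA samples was hybridized to an MOE430A array (chip A) and an MOE430B array (chip B). No genotype, treatment, strain or age is given in the sources used here. RNA was prepared with RNeasy in OGCsort and by a Qiagen method in CPGSE. Nothing in the labels ties the samples to separate animals, so p-values measure the spread between these samples, which may be technical. Values are MAS5 signals rescaled to one trimmed mean per array, and the number of arrays limits their precision.

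A ribosome carries a small subunit, which reads the messenger RNA, and a large subunit, which joins amino acids. Their proteins are needed in fixed proportions, and many of their messenger RNAs begin with a run of pyrimidines, the terminal oligopyrimidine (TOP) tract, through which the mTOR pathway and the binding protein Larp1 set their translation. Red cell precursors are sensitive to shortage of single ribosomal proteins: in humans, loss of 1 copy of RPS19 and of several others causes Diamond-Blackfan anaemia, in which red cell precursors fail.

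The run of pyrimidines was looked for in the RefSeq start sites (build GRCm38.p6) that the sequence table holds for 40 of the 46 genes; Rpl7, Rpl8, Rps14, Rps20, Rps29 and Rps4l have no entry there. An unbroken run of at least 8 bases of C or T, on the strand of the gene, within 10 bases before to 10 bases after an annotated start was present for 14 of 40 genes (35%), against 9.47% of 14453 genes of both chips. Of the 12 genes with an entry among those called higher in OGCsort +/+ than in OGCsort -/- below, 4 had the run (33.3%), and of the 28 other genes 10 had it (35.7%). A match describes the letters around an annotated start and does not show where transcription began in these cells. The windows below cover 15 bases before and 15 bases from the start on, and show examples of genes with and without the run. Capitals mark the run with the most bases of C or T within 10 bases of the start. A longer run that lies mostly further out, as in Rps25, is in lower case. Rps24, Rps10, Rplp2 and Rpl19 have the run and were called. Rps18 and Rps6 have it and were not called. Rpl37a, Rps15, Rps25 and Rpl41 lack it and were called. By adjusted p the clearest differences were those of Rps24 and of these genes without the run, ahead of Rps10, Rplp2 and Rpl19.
Rps24, chr14:24490663-24490692, plus strand: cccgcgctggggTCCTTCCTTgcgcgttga
Rps10, chr17:27635230-27635259, minus strand: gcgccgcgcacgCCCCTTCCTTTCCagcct
Rplp2, chr7:141447636-141447665, plus strand: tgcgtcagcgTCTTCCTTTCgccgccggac
Rpl19, chr11:98026909-98026938, plus strand: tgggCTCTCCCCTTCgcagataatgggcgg
Rps18, chr17:33955651-33955680, minus strand: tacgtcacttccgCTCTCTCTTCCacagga
Rps6, chr4:86857353-86857382, minus strand: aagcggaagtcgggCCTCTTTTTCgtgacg
Rpl37a, chr1:72711245-72711274, plus strand: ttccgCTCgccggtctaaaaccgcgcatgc
Rps15, chr10:80292416-80292445, plus strand: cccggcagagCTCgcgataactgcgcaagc
Rps25, chr9:44407699-44407728, plus strand: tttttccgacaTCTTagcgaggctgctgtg
Rpl41, chr10:128549154-128549183, minus strand: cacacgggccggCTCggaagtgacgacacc

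The cells of the groups differed widely, and these values stand beside each result that follows. Ptprc signal was 149 to 1142 in OGCsort -/-, 7213 to 8516 in OGCsort +/-, 8780 to 12026 in OGCsort +/+ and 11764 to 14319 in CPGSE +/+. The OGCsort -/- samples held the signal of red cell precursors: the summed signal of 14 erythroid genes was 284103 to 457726 there and 4300 to 11954 in the other 8 samples, and 13 of the 14 were called lower in each of the other groups. The summed signal of 15 genes of dividing cells was 108865 to 192483 in OGCsort -/- and 27547 to 57845 elsewhere. Summed neutrophil signal ran from 2104 to 21346 in OGCsort -/-, from 108575 to 440118 in OGCsort +/-, from 8266 to 34206 in OGCsort +/+ and from 14210 to 138880 in CPGSE +/+. Its highest value in OGCsort -/- was in sample 4, the sample of that group with the highest Ptprc signal. Summed B lymphoid signal was 34412 in that sample and 10474 and 3108 in samples 5 and 8. It was 27778 to 70146 in OGCsort +/-, 40722 to 45389 in OGCsort +/+ and 31753 to 31835 in CPGSE +/+. Monocyte and macrophage signal was highest in CPGSE +/+, at 65725 and 68710, against 34195 to 56387 in OGCsort +/-, 45381 to 55538 in OGCsort +/+ and 3654 to 7449 in OGCsort -/-. MHC class II signal was highest in both +/+ groups, at 107937 to 147724, against 18852 to 40952 in OGCsort +/- and 1514 to 4251 in OGCsort -/-. The ratio of the Gapdh probe sets at the 3' and 5' ends, a sign of RNA quality, was 8.17 to 11.8 in OGCsort -/- and 9.14 to 24.8 in the other 8 samples. The same ratio for actin ordered the groups otherwise. It was 5.91 to 8.33 in OGCsort -/- and 4.06 to 12.9 in the other 8 samples, with 4.56 and 4.77 in CPGSE +/+. The part of cell makeup and RNA quality in the differences between ribosomal protein genes was not tested. In such bulk samples fewer cells of a type and less RNA per cell cannot be told apart.

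Of the 46 genes, 45 passed the signal filter of over 100 on at least 2 of 11 arrays; Rps4l did not, with signals of 8 to 29. Rpl39l and Rpl3l, relatives of Rpl39 and Rpl3 known from testis and muscle, passed it with mean signals of 72 and 71, below 100 in most samples. As a whole the ribosomal protein genes were lowest in OGCsort -/-. Each gene was set against its own mean over the 11 samples on the log2(signal + 32) scale, and the median over the 45 genes was taken in each sample. It was -0.17, -0.44 and -0.39 in OGCsort -/- samples 4, 5 and 8. It was 0.22, 0.37 and 0.21 in OGCsort +/+ samples 1, 5 and 6. In OGCsort +/- it was -0.28 in sample 1 and 0.16 and 0.12 in samples 7 and 9, and in CPGSE samples 4 and 6 it was 0.01 and -0.01. With this scaling OGCsort +/+ lay above the other groups and OGCsort +/- sample 1 within the range of OGCsort -/-, but part of this order depended on the scaling. The CPGSE mean of 0.00 became 0.18 with quantile normalization and 0.16 with scaling to one median, against 0.25 and 0.27 in OGCsort +/+. CPGSE sample 4 then lay above OGCsort +/+ sample 1 (0.26 against 0.18 with quantile normalization, 0.14 against 0.04 with one median), and with one median OGCsort +/- samples 7 and 9, at 0.23 and 0.16, did so too. With quantile normalization OGCsort +/- sample 1, at -0.16, lay above every OGCsort -/- sample. All OGCsort +/+ and CPGSE samples lay above all OGCsort -/- samples under the 3 scalings. The same median over all 16990 genes tested lay between -0.03 and 0.09 across the 11 samples. Rescaling every array to one trimmed mean limits how far that median can move, so its flatness is no test. Taking group means gene by gene, OGCsort -/- was the lowest of the 4 groups for 30 of 45 ribosomal protein genes (66.7%) against 32.6% of all genes tested, and OGCsort +/+ was the highest for 26 (57.8%) against 17.1%.

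**Figure D1:**
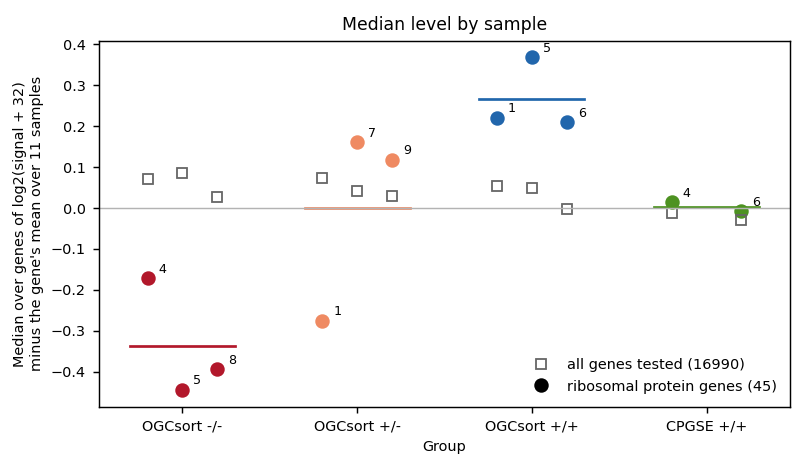
Median over the 45 ribosomal protein genes (filled circles, numbered by sample) and over all 16990 genes tested (open squares) of log2(signal + 32) minus each gene's mean over the 11 samples, by group; horizontal bars are group means of the circles. The circles lie between -0.44 and -0.17 in OGCsort -/- and between 0.21 and 0.37 in OGCsort +/+. The squares lie between -0.03 and 0.09, and the scaling to one trimmed mean limits how far they can move.

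**Figure D2:**
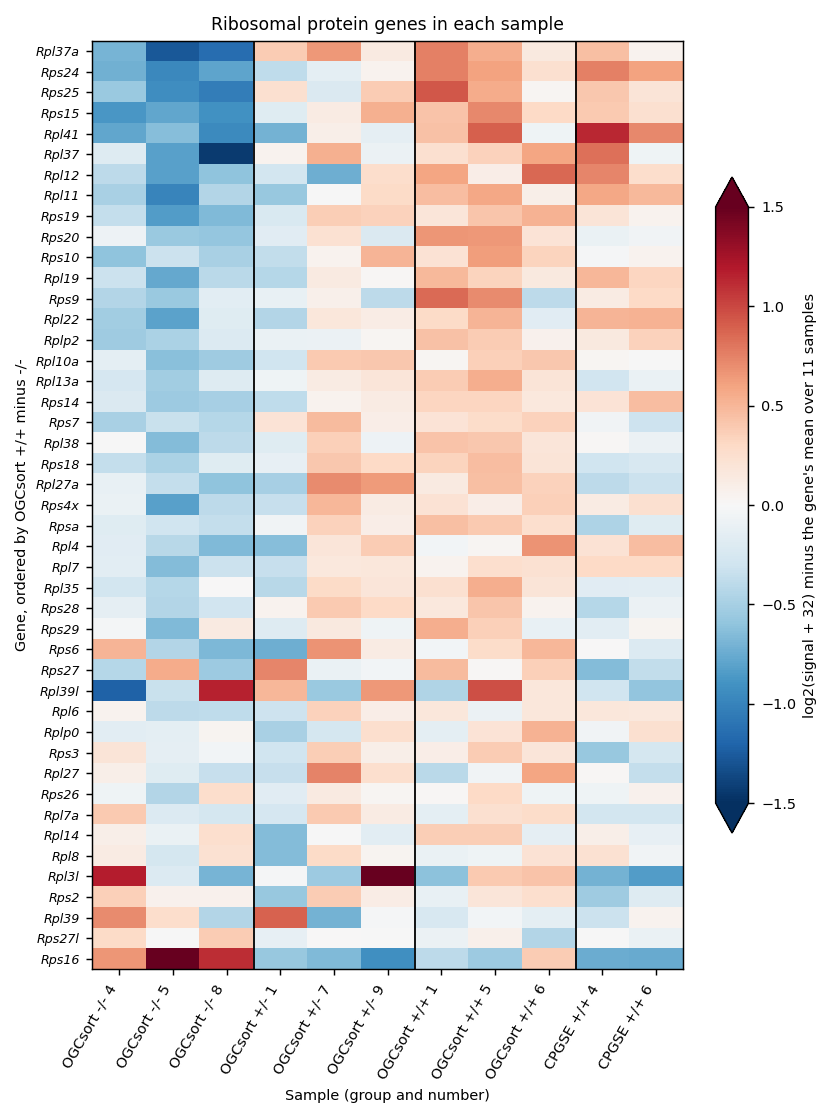
Log2(signal + 32) of each of the 45 genes in each of the 11 samples, minus the gene's mean over the samples; rows are ordered by the difference between OGCsort +/+ and OGCsort -/-, and colours are cut at 1.5 in either direction. The upper rows are low in the 3 OGCsort -/- samples and high in OGCsort +/+, and Rps16 in the bottom row is high in OGCsort -/-.

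Between OGCsort +/+ and OGCsort -/- cells, the double-negative fraction rich in erythroid signal, 39 of 45 ribosomal protein genes had a higher mean log2 value in OGCsort +/+. With limma and Benjamini-Hochberg adjustment over all probe sets of both chips, 13 of 45 were called higher at an adjusted p under 0.05 and 0 lower, 6 of them for the small and 7 for the large subunit. The 13 make 28.9% of the genes, against 12.9% of all genes tested that were called higher; 9.03% of all genes were called lower. The median log2 fold change was 0.66 over the 45 genes, with quartiles of 0.28 and 0.82, and -0.08 over all genes, with quartiles of -0.68 and 0.64. At an unadjusted p under 0.05 there were 25 of 45 genes, against 5989 of all 16990. The count of 13 fell to 6 without OGCsort -/- sample 5, 7 without OGCsort -/- sample 8, 8 without OGCsort +/+ sample 1 and 7 without OGCsort +/+ sample 5. The samples of the 2 groups did not overlap for 28 genes, 27 higher in OGCsort +/+ against 20.2% of all genes, and 1 lower, Rps16, against 20.3%.

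In the small subunit, Rps24, a protein needed for processing of the 18S ribosomal RNA, had signals of 4392, 3702 and 4183 in OGCsort -/- samples 4, 5 and 8. In OGCsort +/+ samples 1, 5 and 6 they were 12225, 10990 and 8560, all above OGCsort -/- and above the 5549 to 7511 of OGCsort +/-. Its log2 fold change between OGCsort +/+ and OGCsort -/- was 1.35 ± 0.22 (SE, as for every log2 fold change that follows; 2.55-fold; adjusted p of limma = 0.000801). Rps24 has 6 probe sets, and the 4 with a mean signal over 1000 gave log2 fold changes of 1.35 to 2.23. A dim one, with a mean signal of 157, gave -1.12 ± 0.60 (limma adjusted p = 0.235), and this probe set would represent the gene if names without a cross-hybridization letter were preferred.

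Several of the called genes belong to the head of the small subunit, the part through which messenger and transfer RNA move. Of the 10 genes of a list of head proteins 5 were called higher (Rps15, Rps19, Rps25, Rps10 and Rps20) and 0 lower. The 5 make 50%, against 28.9% of the 45 ribosomal protein genes and 12.9% of all genes, with 9.03% of all genes called lower. Rps16, also on this list, went the other way, at -1.59 (limma adjusted p = 0.0963). Rps15, whose tail reaches towards the decoding centre, had signals of 3485, 3719 and 3394 in OGCsort -/- and of 8672, 10622 and 7915 in OGCsort +/+. The groups did not overlap, and the log2 fold change was 1.34 ± 0.23 (2.54-fold; limma adjusted p = 0.00117). Rps25, which some viral RNAs need to start translation without a cap, had 847, 644 and 598 in OGCsort -/- and 2419, 1858 and 1287 in OGCsort +/+, again without overlap. Its log2 fold change was 1.34 ± 0.28 (2.54-fold; limma adjusted p = 0.00428).

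Rps19, the gene most often mutated in Diamond-Blackfan anaemia, measured 9453, 6771 and 7610 in OGCsort -/- and 13679, 16112 and 17425 in OGCsort +/+. All OGCsort +/+ values lay above all OGCsort -/- values, with a log2 fold change of 0.99 ± 0.25 (1.99-fold; limma adjusted p = 0.0128). Rps10 and Rps20 are both marked with ubiquitin when ribosomes collide. Rps10 measured 5707, 6979 and 6238 in OGCsort -/- and 10142, 13495 and 11029 in OGCsort +/+, a log2 fold change of 0.86 ± 0.25 (limma adjusted p = 0.0295). Rps20 measured 16261, 11634 and 11435 in OGCsort -/- and 27098, 26933 and 19784 in OGCsort +/+, a log2 fold change of 0.91 ± 0.25 (limma adjusted p = 0.0241). Neither gene's groups overlapped, but the Rps10 call was lost under 11 of 25 alternatives. Among them were scaling to one median and the wash run, inferred from hybridization times, as a fixed block. The 2 bright probe sets of Rps20 gave 0.91 and 0.90, and a dim one of mean signal 135 gave -0.42 ± 0.62.

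In the large subunit the clearest difference was in Rpl37a, a zinc-binding protein. Its signals were 5665, 3788 and 4135 in OGCsort -/- and 15527, 13369 and 10172 in OGCsort +/+. The groups stood far apart, with a log2 fold change of 1.52 ± 0.25 (2.86-fold; limma adjusted p = 0.000818). Rpl37, another zinc-binding protein of this subunit, had 1055, 677 and 430 in OGCsort -/- and 1433, 1556 and 1850 in OGCsort +/+, a log2 fold change of 1.21 ± 0.31 (2.31-fold; limma adjusted p = 0.0146). Rpl41, a very short peptide at the bridge between the subunits, had 6061, 6665 and 5368 in OGCsort -/- and 14156, 19409 and 9975 in OGCsort +/+. Its groups did not overlap, and the log2 fold change was 1.22 ± 0.28 (2.32-fold; limma adjusted p = 0.00845). Its other 3 probe sets gave 0.40 to 0.70 and were not called, and the median over the 4 was 0.67.

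Rpl11 forms, with Rpl5 and the 5S ribosomal RNA, a particle that also binds Mdm2 and so stabilises p53. Its signals were 4057, 2847 and 4201 in OGCsort -/- and 7855, 8551 and 6048 in OGCsort +/+. No values overlapped, and the log2 fold change was 1.02 ± 0.26 (2.02-fold; limma adjusted p = 0.0167). Rpl19, which lies near the exit of the peptide tunnel and reaches towards the small subunit, had 10255, 7541 and 9725 in OGCsort -/- and 18071, 16207 and 14220 in OGCsort +/+. Its log2 fold change was 0.82 ± 0.24 (1.77-fold, limma adjusted p = 0.0303). Rpl19 was the only one of the 4 tunnel exit genes to be called (25%, against 28.9% of the 45 ribosomal protein genes and 12.9% of all genes).

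The stalk is the arm of the large subunit that recruits the elongation factors. Of its 3 measured genes 2 were called higher (66.7%, against 28.9% of the 45 ribosomal protein genes and 12.9% of all genes). Rplp2, a mobile stalk protein, had 11429, 11961 and 14350 in OGCsort -/- and 22459, 21620 and 17405 in OGCsort +/+, without overlap (log2 fold change 0.70 ± 0.23; limma adjusted p = 0.0473), a call lost under 9 of 24 alternatives. Rpl12 of the stalk base had 294, 211 and 251 in OGCsort -/- and 617, 428 and 749 in OGCsort +/+ (log2 fold change 1.13 ± 0.35; limma adjusted p = 0.0387). The Rpl12 call was lost under 7 of 25 alternatives, the wash run as a fixed block among them. A brighter probe set of mean signal 20679, which names other genes beside Rpl12, gave 0.43 ± 0.24 (limma adjusted p = 0.261). Rplp0, which carries the other stalk proteins, had 11070, 11173 and 12637 in OGCsort -/- and 11130, 14194 and 17737 in OGCsort +/+. These ranges overlapped, and its log2 fold change of 0.28 ± 0.26 was not called (limma adjusted p = 0.516).

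**Figure D3:**
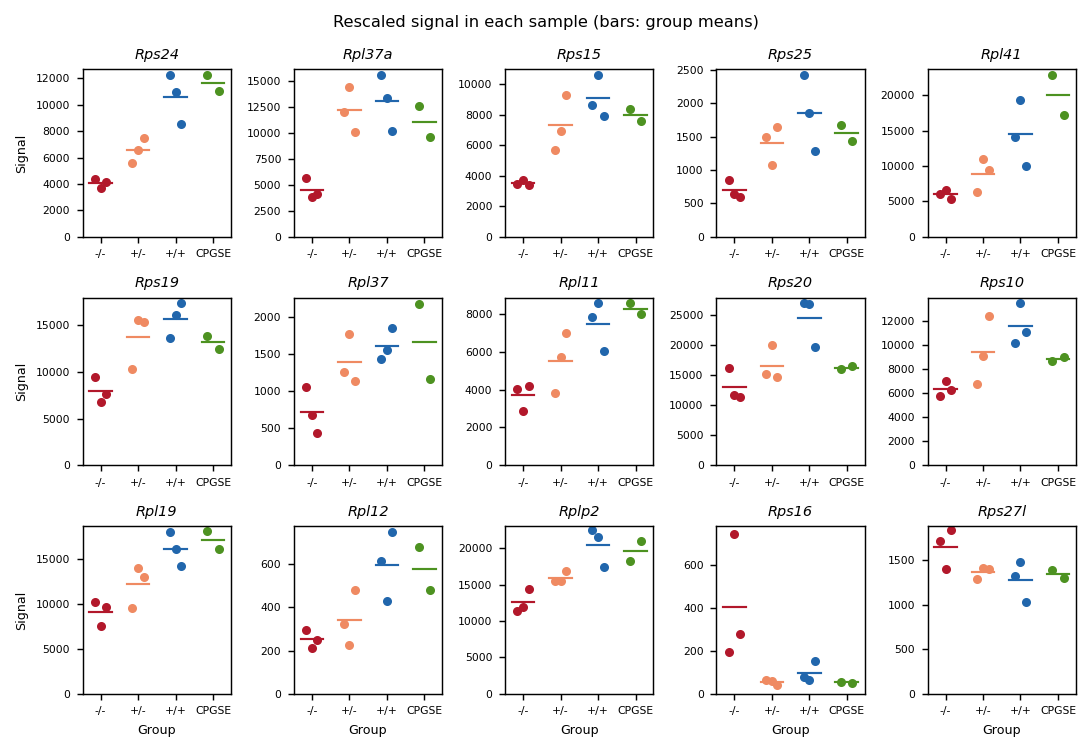
Rescaled signal (linear axis from 0, a separate scale in each panel) of the 13 genes called higher in OGCsort +/+ than in OGCsort -/-, ordered by adjusted p, and of Rps16 and Rps27l; points are samples, bars are group means, and CPGSE stands for CPGSE +/+. In the 13 panels all OGCsort +/+ points lie above all OGCsort -/- points; Rps16 is above 100 in every OGCsort -/- sample and in 1 of the other 8 samples.

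Among the genes not called, many still had samples that did not overlap. Rpsa, also known as the laminin receptor, had 25433, 23489 and 22584 in OGCsort -/- and 39728, 37908 and 34559 in OGCsort +/+, with a log2 fold change of 0.65 ± 0.24 (limma adjusted p = 0.0855). Rps7, also mutated in some patients with Diamond-Blackfan anaemia, had 24311, 27033 and 25340 against 39267, 41293 and 43028, a log2 fold change of 0.69 ± 0.25 (limma adjusted p = 0.0714). Both genes were thus separated in every sample without passing the test. Of the 12 genes with a mean signal over 20000 limma called 0, with 7 at an unadjusted p under 0.05 and a median log2 fold change of 0.67. Of the 10 genes between 1000 and 10000 it called 6, at a median of 0.94. Of all genes tested, at any signal, 12.9% were called higher. The share among all genes of the same signal was not computed, so these counts cannot be read as particular to ribosomal protein genes.

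Of the list of Diamond-Blackfan anaemia genes, 11 were measured here. Rps24, Rps19, Rpl11 and Rps10, or 4 of them, were called higher in OGCsort +/+ than in OGCsort -/-. That is 36.4%, against 28.9% of the 45 ribosomal protein genes and 12.9% of all genes. All 11 had a log2 fold change above 0, with a median of 0.56. Rps27l, a relative of Rps27 that p53 is known to induce, ran the other way. Its signals were 1714, 1398 and 1839 in OGCsort -/- and 1318, 1478 and 1028 in OGCsort +/+, which overlap (log2 fold change -0.37 ± 0.23; limma adjusted p = 0.309). A dimmer probe set of Rps27l, with a mean signal of 914, was called lower at -0.96 ± 0.26 (limma adjusted p = 0.0202). Rps2, Rpl39 and Rpl3l also had log2 fold changes below 0 and were not called. Mean signals in OGCsort -/- and OGCsort +/+ were 45470 and 43967 for Rps2, 1221 and 923 for Rpl39, and 78 and 65 for Rpl3l.

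Between OGCsort +/+ and OGCsort -/- the probe sets of one gene mostly gave one direction. Of 100 probe sets 95 were tested, and 30 of them, in 21 genes, were called higher in OGCsort +/+ and 1 lower. Of all 40405 probe sets tested, 3914 were called higher and 2875 lower. In the 19 genes with 2 or more probe sets over a mean signal of 1000, all probe sets of a gene had the same sign, and their log2 fold changes differed by a median of 0.42 and at most by 1.16, in Rpl27. Of 72 probe sets over 1000, 67 were above 0, at a median of 0.69, and of the 23 dimmer ones 12 were, at a median of 0.12. The 24 genes with only shared probe sets gave 11 called higher and 0 lower at a median of 0.69. Of all genes tested, 12.9% were called higher and 9.03% lower. Among the 24, Rps13 stood at 1.43 ± 0.32 (limma adjusted p = 0.00754). Rpl10, which lies near the site of peptide bond formation, stood at 1.32 ± 0.27 (limma adjusted p = 0.00399). Pseudogene transcripts cannot be told apart from these genes there. In the other comparisons fewer of the 19 genes had all their probe sets over 1000 on 1 side of 0. There were 18 between OGCsort +/- and OGCsort -/- and 15 between OGCsort +/+ and OGCsort +/-. Between CPGSE +/+ and OGCsort -/- there were 15, with a median range of 0.74 and at most 1.70, in Rps3. Only 8 did so between OGCsort +/+ and CPGSE +/+, and 8 between CPGSE +/+ and OGCsort +/-.

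OGCsort +/- cells, which carry CD45 without Sca1 and held the most neutrophil signal, lay between these groups. Against OGCsort -/-, 38 of 45 genes had a log2 fold change above 0, with a median of 0.36 and quartiles of 0.23 and 0.53. All genes had a median of -0.03 and quartiles of -0.61 and 0.61, so their upper quartile lay above that of the ribosomal protein genes. Of the 45 ribosomal protein genes 4 were called higher, 8.89% against 11% of all genes tested, a share near the background. Called lower was 1, Rps16, 2.22% against 7.62%. At an unadjusted p under 0.05 there were 9 of 45, a smaller share than the 5467 of all 16990 genes. The 5 calls fell to 2 without OGCsort -/- sample 5 or 8 or OGCsort +/- sample 9, and to 3 without OGCsort +/- sample 7. The samples did not overlap for 12 genes higher in OGCsort +/-, or 26.7%, against 17.6% of all genes, and for 1 lower against 17.3%.

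Rpl37a again led, with 11986, 14406 and 10078 in OGCsort +/- samples 1, 7 and 9, all above the 3788 to 5665 of OGCsort -/- (log2 fold change 1.42 ± 0.25; 2.68-fold; limma adjusted p = 0.00162). Rps15 had 5674, 6967 and 9325, also all above OGCsort -/- (1.02 ± 0.23 on the log2 scale; limma adjusted p = 0.00908). Rps25 had 1495, 1075 and 1644 (log2 fold change 0.97 ± 0.28; limma adjusted p = 0.0319). Rpl37 had 1261, 1775 and 1137 (log2 fold change 0.98 ± 0.31; limma adjusted p = 0.0483), but this call was lost under 12 of 23 alternatives, quantile normalization and scaling to one median among them. The calls of Rps15 and Rps25 were lost under 5 and 6 of 24 alternatives, and that of Rpl37a under 0 of 23. These 4 genes are also among the 13 called in OGCsort +/+, and both comparisons share the OGCsort -/- samples. Rps24, with 5549, 6546 and 7511, stood above OGCsort -/- in every sample without a call (log2 fold change 0.66 ± 0.22; limma adjusted p = 0.0648), as did Rps19, with 10285, 15603 and 15399 (0.78 ± 0.25 on the log2 scale; limma adjusted p = 0.0505). By recorded hybridization times, all OGCsort +/- arrays of chip A fell in another wash run than the OGCsort -/- arrays. With the wash run as a fixed block, which links them through OGCsort +/+, 1 gene of 45 was called, at a median log2 fold change of 0.53.

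Rps16, a small subunit protein that touches the transfer RNA in the peptidyl site, was the gene called lower. It had 195, 747 and 278 in OGCsort -/- samples 4, 5 and 8, and 65, 59 and 43 in OGCsort +/-. In OGCsort +/+ it had 77, 66 and 154, and in CPGSE +/+ 53 in both samples. Only the OGCsort -/- samples and 1 other were above 100, so the gene passed the signal filter only through the group where it is high. Its calls are therefore given as values and are no support for a difference. Against OGCsort -/- the log2 fold change was -2.12 ± 0.62 in OGCsort +/- (limma adjusted p = 0.0326) and -1.59 ± 0.62 in OGCsort +/+ (limma adjusted p = 0.0963). This chip B probe set is the only one naming Rps16 alone. The brightest probe set that names it beside pseudogenes or predicted genes gave -0.26 ± 0.55 between OGCsort +/+ and OGCsort -/- (limma adjusted p = 0.805), so the call rests on 1 dim probe set, and in OGCsort +/- it was lost under 7 of 23 alternatives. Rps27 also stands on a dim probe set, of mean signal 671, which was not called (0.42 ± 0.34 on the log2 scale between OGCsort +/+ and OGCsort -/-; limma adjusted p = 0.448); its shared probe set of mean signal 22568 was called higher in OGCsort +/+ than in OGCsort -/- (limma adjusted p = 0.00109) and in OGCsort +/- (1.14 ± 0.26 on the log2 scale; limma adjusted p = 0.00816).

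**Figure D4:**
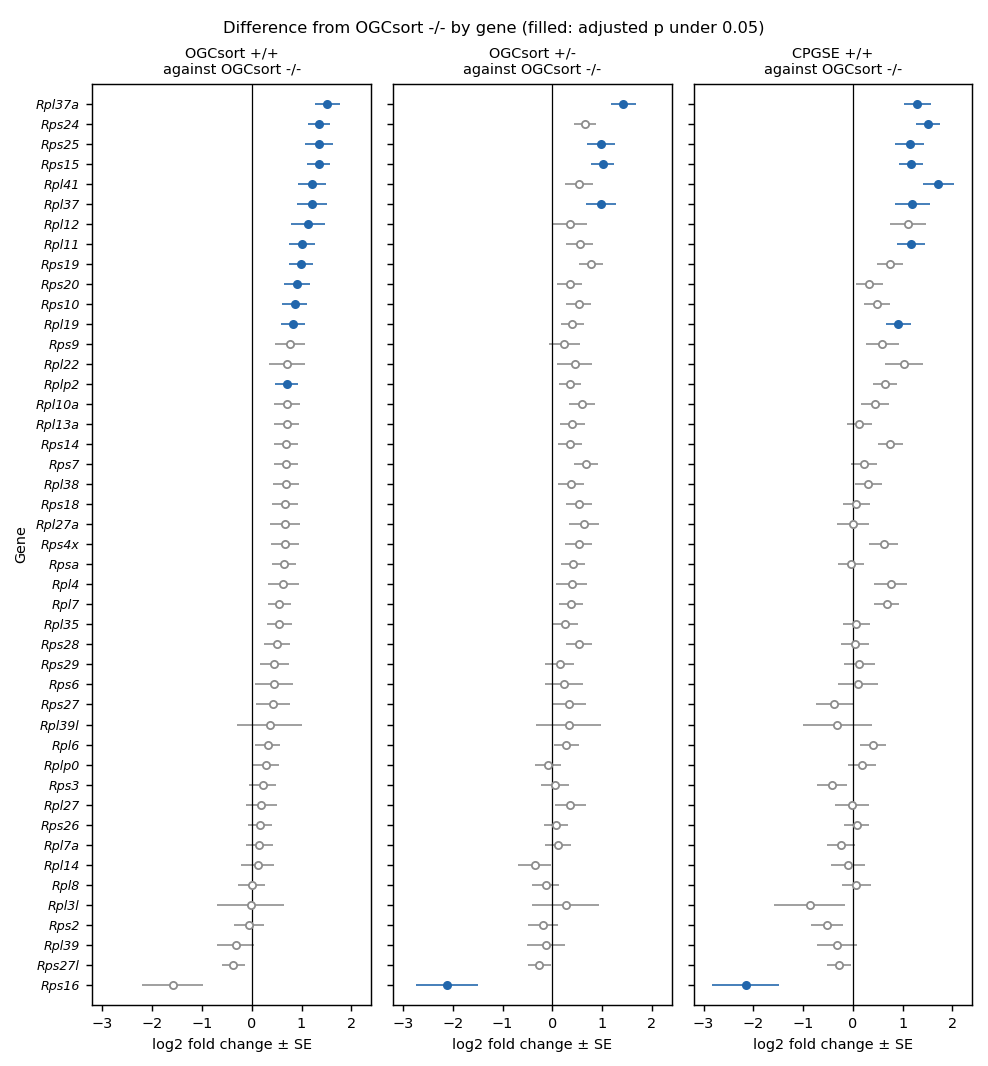
Log2 fold change ± SE of the 45 genes in OGCsort +/+, OGCsort +/- and CPGSE +/+ against OGCsort -/-, with genes in the order of the first panel; filled blue points passed an adjusted p of 0.05. In the first panel 13 points are filled and to the right of 0, in the second 4 to the right and Rps16 to the left, and in the third 8 to the right and Rps16 to the left.

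The CPGSE +/+ samples, labelled as haematopoietic stem cells, were compared with OGCsort -/- in the same way. Of 45 genes 32 had a log2 fold change above 0, and 8 were called higher, 17.8% against 13.1% of all genes tested. Called lower was 1 gene, 2.22% against 9.38%. It was Rps16, which passed the signal filter only through OGCsort -/-. The median was 0.23 over the ribosomal protein genes and -0.14 over all genes. It depended on the choice of probe set: over the 72 ribosomal protein probe sets with a mean signal over 1000 it was 0.57, and over the 23 dimmer ones -0.18. Over all probe sets tested the median was -0.18, and it moved to -0.06 with quantile normalization and to -0.01 with scaling to one median. The median of the ribosomal protein genes moved with it to 0.63 and 0.47, and stayed above it under each scaling. With quantile normalization 16 genes were called higher and 0 lower. The 9 calls fell to 2 without CPGSE sample 4, 5 without CPGSE sample 6 and 6 without OGCsort -/- sample 5, where the lone CPGSE sample is assumed to vary like the other groups.

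Rpl41 led here, at 22817 and 17167 in CPGSE samples 4 and 6 against 5368 to 6665 in OGCsort -/- (log2 fold change 1.71 ± 0.31; 3.28-fold; limma adjusted p = 0.00143), although the median over its 4 probe sets was 0.48. Rps24 had 12255 and 11069, above every OGCsort sample except OGCsort +/+ sample 1, which lay between them (log2 fold change against OGCsort -/- 1.51 ± 0.24; limma adjusted p = 0.000484). Rpl11 had 8561 and 8006, both above all OGCsort -/- values (1.18 ± 0.28 on the log2 scale; limma adjusted p = 0.00979). Rpl37a, Rps15, Rps25, Rpl19 and Rpl37 were the other genes called higher, at log2 fold changes of 0.91 to 1.29. Rpsa, one of the genes separated in OGCsort +/+, had 20943 and 25544 in CPGSE, one just below and one just above the OGCsort -/- range of 22584 to 25433. By recorded hybridization times the CPGSE arrays fell in wash runs of their own, so batch and group cannot be told apart.

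Among the CD45-positive groups limma called 0 of the 45 genes by their representing probe sets. Between OGCsort +/+ and OGCsort +/-, limma called 0 of 45, against 0.106% of all genes called higher and 0.0589% called lower. Here 4 genes had an unadjusted p under 0.05, against 1318 of all 16990. Of 45 genes 40 were above 0, at a median log2 fold change of 0.23 (all genes -0.02), which fell to 0.11 without OGCsort +/- sample 1, the lowest of its group. For 6 genes all OGCsort +/+ samples were higher, 13.3% against 7.58% of all genes, with 0 lower against 7.26%. The largest difference by unadjusted p was in Rps24, at 0.69 ± 0.22 on the log2 scale (limma adjusted p = 0.443). Between OGCsort +/+ and CPGSE +/+, which carry the same markers, limma called 0 of 45 and 0% of all genes in either direction. Here 6 genes had an unadjusted p under 0.05, against 1096 of all 16990. All 6 were higher in OGCsort +/+, among them Rpsa at 0.69 ± 0.26 on the log2 scale (limma adjusted p = 0.733), and the median was 0.22. This median fell to 0.08 with quantile normalization and to 0.07 with scaling to one median. Between CPGSE +/+ and OGCsort +/-, limma called 0 of 45, against 0.347% and 0.0942% of all genes called higher and lower. The median over the 45 genes was -0.02. Here 3 genes had an unadjusted p under 0.05, a smaller share than the 2007 of all 16990. Of the 95 probe sets tested between CPGSE +/+ and OGCsort +/-, 1 was called, against 126 of all 40405. It was a probe set of Rps24 with a mean signal of 1545 that does not represent the gene (1.82 ± 0.33 on the log2 scale, limma adjusted p = 0.0288). Calls that miss the threshold do not show that these groups hold equal levels.

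**Figure D5:**
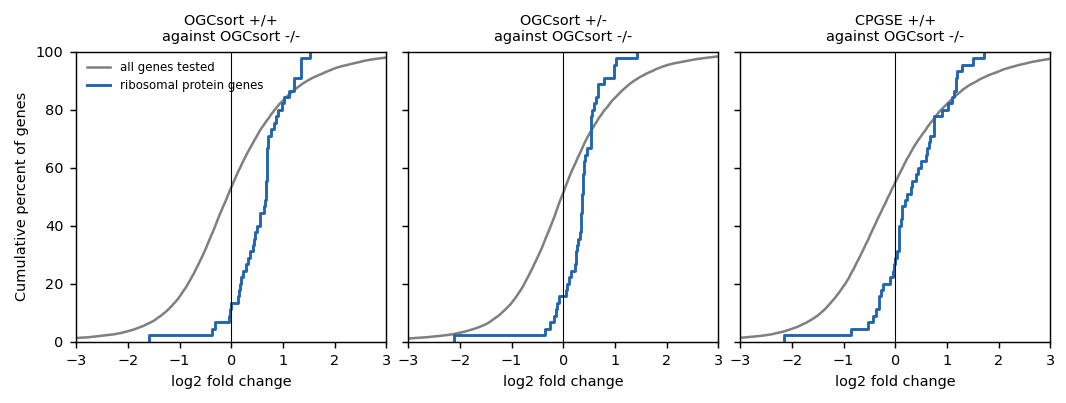
Cumulative percent of genes by log2 fold change for the 45 ribosomal protein genes (blue steps) and all genes tested (grey line) in OGCsort +/+, OGCsort +/- and CPGSE +/+ against OGCsort -/-; the axis is limited to -3 to 3. The blue steps lie to the right of the grey line over most of their range and are steeper. In OGCsort +/+ their quartiles are 0.28 and 0.82, against -0.68 and 0.64 for all genes. In OGCsort +/- they are 0.23 and 0.53, against -0.61 and 0.61 for all genes.

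Other genes of protein synthesis were read from lists in the same fits. Proteins of the ribosome that the name rule leaves out followed the members where measured: of 4 genes 2 were called higher in OGCsort +/+ than in OGCsort -/- (50%, against 12.9% of all genes) and 0 lower. They were Fau, a ubiquitin-like protein fused to a small subunit protein, at 8313 ± 2159 and 16036 ± 1523 (mean ± SD, n = 3; 0.97 ± 0.27 on the log2 scale; limma adjusted p = 0.0227), and Rpl22l1, a relative of Rpl22 (0.82 ± 0.25 on the log2 scale; limma adjusted p = 0.0336). Of 69 genes of ribosome assembly, which build the particle in the nucleolus and cytoplasm, 24 were called higher (34.8%, against 12.9% of all genes) and 1 lower (1.45%, against 9.03%), with a median log2 fold change of 0.87. Tsr1, a factor of small subunit maturation, stood at 1224 ± 347 in OGCsort -/- and 8506 ± 1249 in OGCsort +/+ (6.94-fold; limma adjusted p = 2.75e-05). Nsa2, a factor of large subunit assembly, stood at 71.5 ± 32.9, under the signal minimum of 100, and at 690 ± 120 (limma adjusted p = 7.69e-05). Against OGCsort -/- the assembly list gave 18 higher (26.1%, all genes 11%) and 1 lower (1.45%, all genes 7.62%) in OGCsort +/-. In CPGSE +/+ it gave 22 higher (31.9%, all genes 13.1%) and 2 lower (2.9%, all genes 9.38%).

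Of 33 translation factors 4 were called higher (12.1%, all genes 12.9%) and 3 lower (9.09%, all genes 9.03%) in OGCsort +/+ than in OGCsort -/-, shares near the background, at a median of 0.36. Pabpc1, the poly(A) binding protein whose own messenger RNA carries a TOP tract, was lower, at 14356 ± 1119 against 35462 ± 7803 (-1.28 ± 0.28 on the log2 scale; limma adjusted p = 0.00563). Eif4a2, an RNA helicase of initiation, was higher, at 4881 ± 2830 against 1628 ± 616 (1.47 ± 0.37 on the log2 scale; limma adjusted p = 0.0138). Of 16 regulators of TOP messenger RNAs 0 were called by limma (all genes 12.9% higher and 9.03% lower). At an unadjusted p under 0.05, 1 was higher, against 3224 of all 16990 genes. Of 13 genes of RNA polymerase I, which transcribes ribosomal RNA, 0 were higher and 1 lower (7.69%, all genes 9.03%), Ubtf (-0.78 ± 0.21 on the log2 scale; limma adjusted p = 0.0216). The proteins of the mitochondrial ribosome, a separate particle, gave 12 higher of 76 (15.8%, near the 12.9% of all genes) and 3 lower (3.95%, all genes 9.03%), at a median of 0.11.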

How the data were processed

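RNA of 11 sorted mouse bone marrow samples was hybridized to 22 Affymetrix arrays, 1 of each chip per sample. The deposited intensity values are MAS5 signals per probe set, per the submitters' processing notes; no software version was found there, and the trimmed mean of each array was about 1501. Here the trimmed mean was set to 500 on every array (2% cut at each end), 32 was added and log2 taken, so fold changes of dim genes are understated. Probe sets over 100 on at least 2 of 11 arrays were tested (19177 on chip A, 21228 on chip B) with limma 3.58.1 in R 4.3.3 (eBayes with trend), chips fitted separately and p-values adjusted by Benjamini-Hochberg over both. The 3 OGCsort groups shared a fit of 9 samples; comparisons with CPGSE +/+ used all 11. MAS5 signals are floored near background, and no detection calls were used. Genes named in the text were those called, by adjusted p, up to 15 per comparison, and those with the 5 largest and 5 smallest changes; Rpsa, Rps7, Rplp0, Rps27 and the list genes were named for their roles after their values were seen. The members and lists were chosen with earlier results of these data known. Start sites are from RefSeq, matched by symbol. The fit was also run on simulated data with independent errors and shifts added to OGCsort +/+, as a check of the code. That simulation held no wash runs and no differences in cell makeup, so it does not bear on the calls above. Alternatives covered scaling, filter, pseudocount, eBayes settings, wash run, choice of probe set and each sample left out. Wash runs were inferred here from the hybridization times in the array records, with a gap of over 60 minutes opening a new run.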

Additional observations from a re-analysis of the deposited data

How the results depend on the processing

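No paired analysis was possible because the compared groups share fewer than 2 sample numbers, and the labels do not say that a number marks a shared sort. With the number as a random replicate block, where only 1 and 5 recur among the OGCsort samples, 23 ribosomal protein genes were called between OGCsort +/+ and OGCsort -/-. In that comparison the 13 calls became 22 with quantile normalization, 20 with signal over 100 on all arrays, 5 without the eBayes trend, 5 with only probe sets whose names carry no letter, and 24 of 69 with the genes of shared probe sets, an alternative chosen after seeing the data; leaving out 1 sample gave 6 to 14. Within the chip A wash run that all OGCsort -/- samples share with 2 OGCsort +/+ samples, also chosen after seeing the data, 12 of 43 were called. Between OGCsort +/- and OGCsort -/- the 5 calls became 8 with quantile normalization, 2 without the trend, 1 with the wash run as a fixed block, 8 with it as a random block, 3 with letterless probe sets and 10 with shared probe sets; leaving out 1 sample gave 2 to 6. Between CPGSE +/+ and OGCsort -/- the 9 calls became 16 with quantile normalization, 14 with robust eBayes, 14 with array weights and 16 with shared probe sets; leaving out 1 sample gave 2 to 13. The other 3 comparisons kept 0 calls under every alternative run. With letterless probe sets preferred or alone, the sign turned for Rps24 (-1.12 between OGCsort +/+ and OGCsort -/-, -1.52 against OGCsort +/-, -1.59 between CPGSE +/+ and OGCsort -/-) and for Rps20 (-0.42 between OGCsort +/+ and OGCsort -/-), where the probe sets read are near the floor; the cause was not tested. Rpl37a, Rps15 and Rps25 were called between OGCsort +/+ and OGCsort -/- under every alternative that gave them a value, at 1.22 to 1.69, 0.95 to 1.43 and 1.13 to 1.58. The call in that comparison was lost under 7 of 25 alternatives for Rpl12, 6 of 25 for Rpl19 and 4 of 25 for Rpl41. It was lost under 5 of 24 for Rpl37, 4 of 24 for Rpl11 and 2 of 24 for Rps19. For Rps20 it was lost under 6 of 25, not counting the turned sign. The wash run as a fixed block was not run for CPGSE +/+. Signals near the floor limit what can be read for Rps16, Rpl39l, Rpl3l and Rps4l.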
